A study of Mus musculus with 9 samples.

Results

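The region described here is the Platr4 locus on mouse chromosome 3, taken as the minus-strand SAFB peaks with a midpoint between 41397160 and 41507308 (mm10), an interval of 110.149 kb. It held 45 of the 30998 peaks in the deposited list, or 0.145%, and 5 further peaks lay on its plus strand. The members were selected on measured values, the position, strand and close spacing of the called peaks, so their number and spacing are given as a description, with no test. The study sequenced RNA recovered with SAFB1 from male mouse embryonic stem cells of the hybrid strain CAST/B6 carrying a Rosa26-RMCE site, all given doxycycline for 3 days. Its 9 libraries form 5 groups. SAFB1 antibody was used in 3 wild-type libraries (the parent line, clone 20 and clone 44) and in 2 libraries of cells without both Safb genes (safb1/2 dko, clones 4 and 13), and IgG was used in 2 wild-type libraries (the parent line and clone 20). FLAG antibody was used in 2 libraries of knockout clone 13, 1 with an egfp plasmid and 1 with a plasmid for full-length safb1. For the library with safb1 the genotype is labelled WT, although the title gives knockout clone 13. The list gives positions for the series as a whole and no value for any library. No difference between antibodies or genotypes could therefore be measured here, no level has a replicate error, and the depth behind each peak is unknown.

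SAFB1 and its paralogue SAFB2 are nuclear proteins with an RNA recognition motif and a DNA-binding SAP domain, and both associate with nuclear RNA. Platr4 is a long non-coding RNA of the Platr group, whose name stands for pluripotency-associated transcript. These RNAs were grouped because they are abundant in embryonic stem cells and fall as the cells differentiate, and Platr4 has been linked to the commitment of these cells to mesoderm and endoderm. Its annotated neighbours in the interval are non-coding too: Gm40040, a long intergenic RNA, Gm25487, annotated as a small nucleolar RNA, and Gm6069, a processed pseudogene on the plus strand.

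Reference sequence was at hand for the parts of 6 of the 45 peaks that GENCODE M21 transcripts (mm10) hold, 1887 bases or 5.22% of the bases under the peaks. The stretches below are shown because they are the annotated RNA under the peaks. The peaks are numbered 1 to 45 in the direction of transcription of Platr4, from high to low coordinates. Sequences are given 5′ to 3′ on the minus strand, and capitals mark runs of 8 or more bases made of A and G alone, since SAFB proteins have been described to prefer purine-rich RNA. For peak 7 the middle 300 bases are shown, chr3:41489114-41489413, which lie in the second exon of Platr4. Peak 10 is given whole and lies in the first exon of Gm40040, chr3:41482163-41482382. Peak 13 covers the second exon of Gm40040, chr3:41477577-41477792, and peak 33 covers Gm25487, chr3:41441343-41441467.
Peak 7, middle: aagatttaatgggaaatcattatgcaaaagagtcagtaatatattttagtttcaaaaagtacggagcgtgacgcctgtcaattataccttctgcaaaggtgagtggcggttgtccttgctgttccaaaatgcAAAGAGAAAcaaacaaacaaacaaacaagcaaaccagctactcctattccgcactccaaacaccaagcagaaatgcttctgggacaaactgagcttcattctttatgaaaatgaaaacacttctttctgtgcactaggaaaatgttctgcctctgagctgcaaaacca
Peak 10: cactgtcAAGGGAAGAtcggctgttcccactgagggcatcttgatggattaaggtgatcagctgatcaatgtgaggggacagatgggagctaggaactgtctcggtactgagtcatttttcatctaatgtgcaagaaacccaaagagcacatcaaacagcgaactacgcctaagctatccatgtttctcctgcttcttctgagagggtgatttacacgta
Peak 13, part in the exon of Gm40040: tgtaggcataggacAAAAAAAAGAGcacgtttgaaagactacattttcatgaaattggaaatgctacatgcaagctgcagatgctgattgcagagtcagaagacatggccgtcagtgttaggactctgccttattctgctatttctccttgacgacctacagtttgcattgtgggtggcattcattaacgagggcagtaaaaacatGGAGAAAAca
Peak 33, part in Gm25487: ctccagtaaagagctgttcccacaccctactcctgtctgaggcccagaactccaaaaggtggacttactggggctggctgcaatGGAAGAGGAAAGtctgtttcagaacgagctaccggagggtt

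The purine content of these stretches lay on both sides of the usual value for exonic peaks. Peak 7 had 58.8% purines over its 817 bases, with 7 runs of 8 or more purines, and stood at percentile 80.5 of the 3761 exonic peaks of the list with at least 50 bases of transcript sequence. Those peaks had a median of 53.7% (quartiles 50.6 and 57.5). The exonic part of peak 13 had 56.0% purines, Gm25487 had 53.6% and peak 10 had 52.7%. The stretch of peak 8 opposite Gm6069 had the lowest share, 46.7% over 463 bases, at percentile 7.13. Peaks 7 and 10, the members with an exonic midpoint, had 57.5% purines over 1037 bases together, and 53.3% when each was reduced to at most its central 300 bases.

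In the 2161 bases of the longest transcript of Platr4, purines made up 58.5% of the 863 bases under peaks and 48.4% of the 1298 bases outside. The purine-rich hexamers described next went the other way on this transcript, with 0 under peaks and 2 outside. These are values of 1 transcript, and no test was made of them.

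The hexamers AGAAGA, its shifted form GAAGAA, and the further shifted form AAGAAG, searched on the transcribed strand and counted at every start, overlapping ones included, were scarce in these stretches. Over all exonic peaks they occurred 4.71 times per kb, and 28.8% of those peaks had none. Peaks 7 and 10 had 0, and so did the stretches of peaks 8 and 33. Peak 13 had 1 in the exon of Gm40040. The sequence of the other 39 peaks was not used here, so these values describe the annotated transcripts alone.

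**Figure D1:**
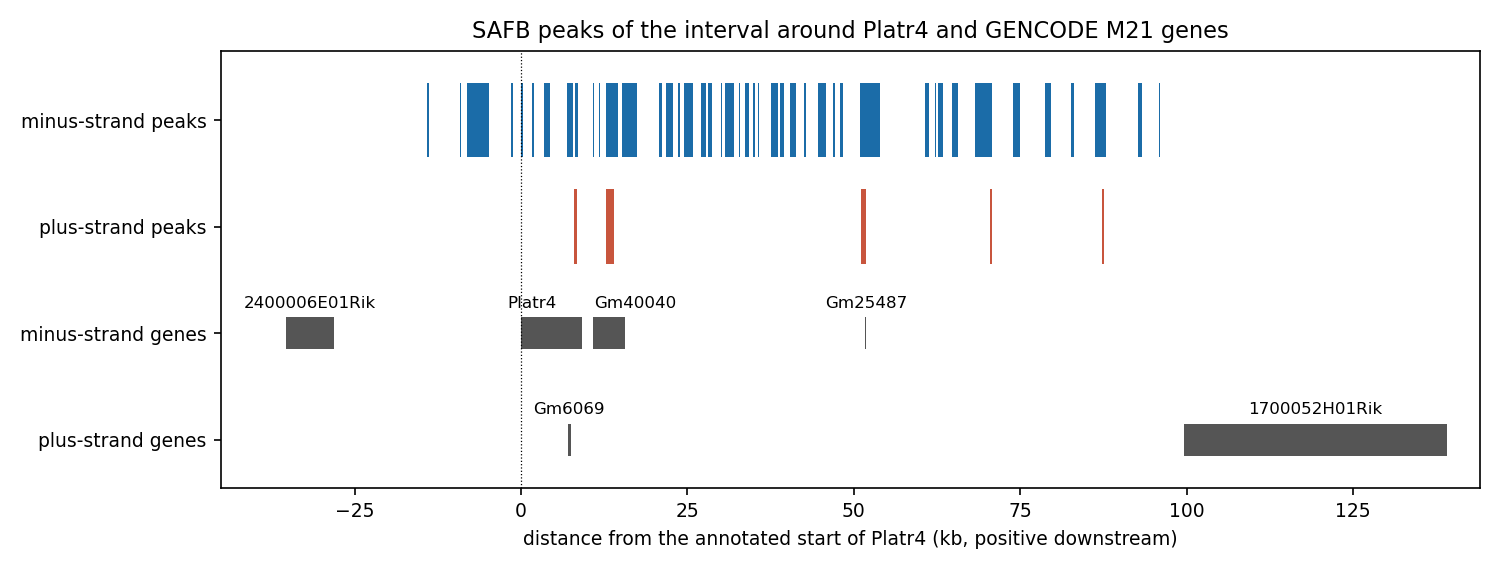
Map of the interval. The horizontal axis is the distance from the annotated start of Platr4 in kb, positive downstream; boxes are the 45 minus-strand peaks, the 5 plus-strand peaks and the GENCODE M21 genes of each strand. Minus-strand peaks run from 13.93 kb upstream to 95.95 kb downstream of the start, far beyond the 9.169 kb body of Platr4.

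The peaks ran far past the annotated genes of their strand. As the map of the interval shows, they began 13.93 kb ahead of the start of Platr4 and ended 95.95 kb after it, measured at the midpoints. The annotated body of Platr4 (ENSMUSG00000097639.2, 41484024 to 41493192, minus strand, 3 transcripts) held 5 of the 45 peaks, or 11.1% (95% Wilson interval 4.84 to 23.5, counting error only), and makes up 8.32% of the interval. The body of Gm40040 (ENSMUSG00000105260.1, 41477577 to 41482391, minus strand) held 3. The other 37 peaks, 82.2% (68.7 to 90.7), had midpoints outside annotated genes, against 20.3% of the whole list. The peaks are neighbours from the chosen interval and not independent, so the Wilson intervals are no test against the list. By midpoint, 2 members lay in an exon and 6 in an intron, or 4.44% and 13.3%, against 12.1% and 54.5% of the list.

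Platr4 was covered in introns as well as exons. It held 0.545 peaks per kb, and the remaining 100.98 kb of the interval held 40 peaks, or 0.396 per kb. Peak 5 (41492961 to 41493133, 173 bases) ran across the end of the first exon into the first intron, with its midpoint 145 bases after the start of the gene. Peak 6 (41491289 to 41491468, 180 bases) lay in the first intron. Peak 7 (41488856 to 41489672, 817 bases) lay wholly within the second exon and was the single exonic peak of the gene by midpoint. Peaks 8 (41485457 to 41486357, 901 bases) and 9 (41484621 to 41485070, 450 bases) lay in the intron of the transcript that starts furthest downstream. Peaks covered 33.8% of the exon bases of Platr4 and 25.1% of its intron bases.

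Peak 8 carries a limit because of what lies opposite it. It spans Gm6069 (41485733 to 41486195), which is on the plus strand. The sequence of Gm6069 matched transcripts of 97 other genes, 19 of them at 90% identity or more over at least 80% of its length. Among these was Ppia, which encodes the abundant prolyl isomerase cyclophilin A, at 93.7% identity. How reads from such repeated sequence were placed is not given in the sources used here, so the 463 bases of peak 8 that face Gm6069 are uncertain. The stretches of peaks 7, 10, 13 and 33 held by transcripts matched 0 other genes in the same search.

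Gm40040, which lies 1.632 kb beyond the end of Platr4, had the larger covered share of the pair. It had 55.4% of its bases under peaks, against 27.5% for Platr4. Its 3 peaks made 0.623 per kb, against 0.545 from 5 peaks in Platr4. With the RefSeq bodies the order by peaks per kb reversed: Gm40040 held 4 peaks over 9.098 kb and Platr4 held 3 over 5.519 kb. Peak 10 (220 bases) lay in an exon. Peaks 11 (41481294 to 41481540, 247 bases) and 12 (41478638 to 41480367, 1730 bases) lay in an intron. Peak 13 (41475798 to 41478047, 2250 bases) ran across the annotated 3′ end of the gene and covered the exon there, with its midpoint outside. The 1.632 kb between both GENCODE bodies had 0 peaks, while peaks 8 and 9 lay between the RefSeq bodies.

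Ahead of the start of Platr4, 4 peaks covered 29.3% of 14.116 kb. The widest of the 45, peak 3 (41498044 to 41501355, 3312 bases), stood there, with its midpoint 6.51 kb upstream of the start. Peak 4 (287 bases) was 1.38 kb upstream, peak 2 (162 bases) 9.07 kb and peak 1 (373 bases) 13.93 kb. RefSeq draws the next gene upstream, 2400006E01Rik, longer than GENCODE does, from 41500931 to 41528474, and peaks 1 and 2 fall in that body. Peak 3 runs across the end of that body at 41500931, with its midpoint outside. With the RefSeq gene bodies 36 of the 45 peaks (80%) lay outside genes of their strand. RefSeq also draws Platr4 shorter, from 41487681 to 41493199, with 3 peaks, and Gm40040 longer, with 4.

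Most of the locus, 33 peaks or 73.3%, lay downstream of Gm40040, over 80.417 kb in which GENCODE annotates Gm25487 and no other gene of the minus strand. The share follows the length of this part, which held 0.410 peaks per kb against 0.409 over the interval. Between 20 and 50 kb from the start of Platr4 came peaks 14 to 32, 19 in all, with a median width of 513 bases (77 to 1423) and 40.7% of the bases covered. Their 18 gaps had a median of 683.5 bases (342 to 1922), and 12 were under 1 kb. The narrowest of the 45 peaks, peak 25 (41457516 to 41457592, 77 bases), fell there.

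Next came peak 33 (41439254 to 41442260, 3007 bases), alone in the bin from 50 to 60 kb. It holds all 125 bases of Gm25487. Small nucleolar RNAs guide the chemical modification of other RNAs and are often processed from the introns of longer transcripts. Of 1507 annotated small nucleolar RNA genes, 12 (0.796%, interval 0.456 to 1.39) overlapped a peak of their strand, and 9 lay wholly under one.

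Beyond peak 33 the spacing varied. A gap of 6666 bases, the longest of the interval, separated it from peak 34. Peaks 34 to 38, between 60 and 70 kb, had a median width of 787 bases and lay in a bin with 42.7% of its bases covered. The median gap between them was 1070.5 bases, against 1239 over the interval. Peak 38 (41422430 to 41424955) was 2526 bases wide. From 70 kb to the end of the interval 7 peaks had a median gap of 2934.5 bases. The last of them were peak 43 (41405367 to 41406911, 1545 bases), peak 44 (41399982 to 41400533, 552 bases) and peak 45 (41397160 to 41397329, 170 bases).

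**Figure D2:**
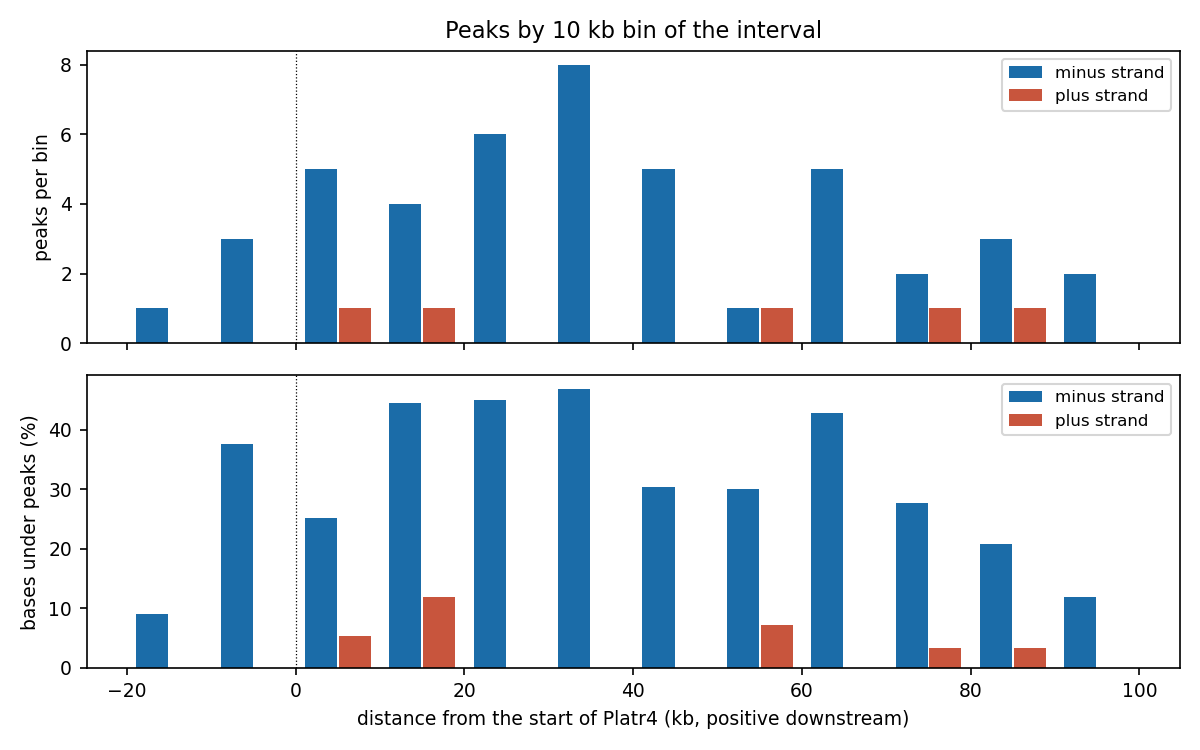
Number of peaks (top) and share of bases under peaks in percent (bottom) in bins of 10 kb by distance from the start of Platr4, for the minus and the plus strand; the first and last bin lie only partly in the interval. Minus-strand coverage is between 25.2% and 46.7% in every bin from -10 to 80 kb and is 20.7% and 11.97% in the last bins.

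Coverage was broad rather than centred on Platr4. The bar chart of 10 kb bins shows that the bin from 0 to 10 kb, which holds the body of Platr4, had 25.2% of its bases under minus-strand peaks. The bins from 10 to 40 kb had 44.5%, 45.0% and 46.7%. The bin with the most peaks, 8 between 30 and 40 kb, was also the most covered. A bin with 1 wide peak could still match one with several: the bin from 50 to 60 kb had 1 peak and 30.1% coverage, and the bin from 40 to 50 kb had 5 peaks and 30.3%. In all, minus-strand peaks covered 36143 bases or 32.8% of the interval.

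**Figure D3:**
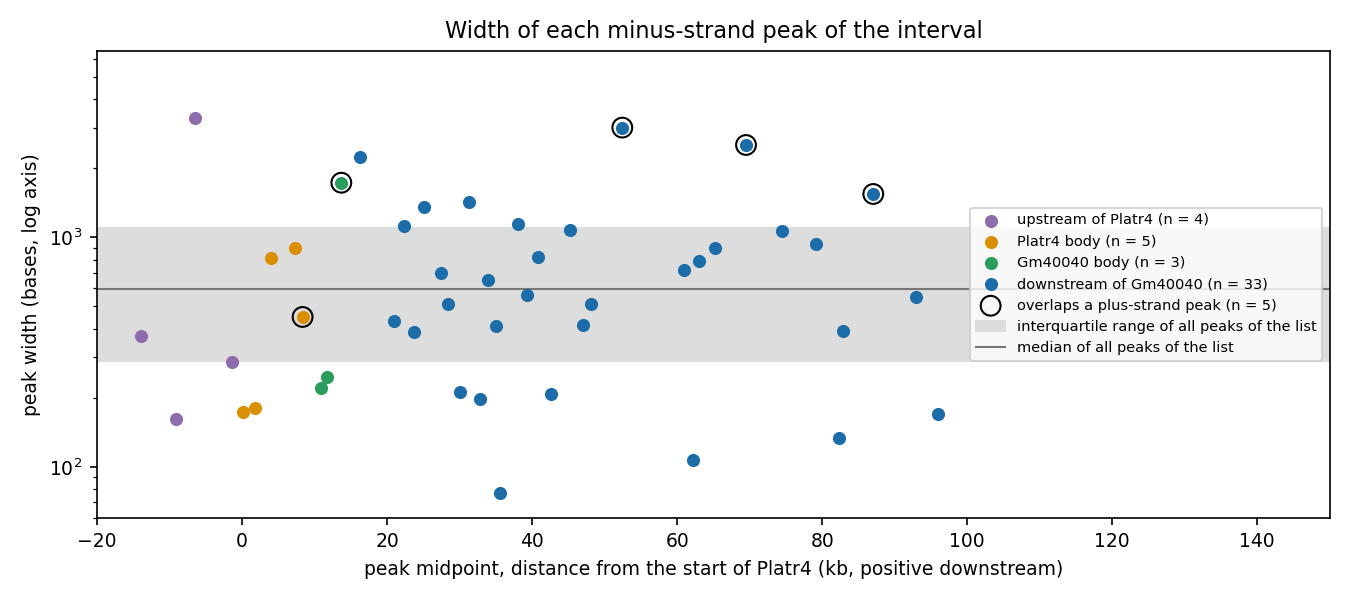
Width in bases (log axis) of each of the 45 minus-strand peaks against its distance from the start of Platr4 in kb, coloured by segment, with the median (596) and interquartile range of all 30998 peaks; rings mark the 5 that overlap a plus-strand peak. Wide and narrow peaks lie side by side, between 77 and 3312 bases.

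In width the peaks of the locus lay close to the list as a whole. Their median was 552 bases (quartiles 247 and 1063, range 77 to 3312), against 596 (290 and 1100, range 74 to 5062). Peaks of at least 1 kb numbered 12 (26.7%, against 28.9% of the list), peaks of at least 2 kb numbered 4 (8.89% against 4.78%), and peaks under 200 bases numbered 8 (17.8% against 15.7%). The plot of widths shows wide and narrow peaks side by side throughout. In spacing, which the choice of the interval used, they differed: gaps between neighbours had a median of 1239 bases (quartiles 614 and 2561.75) against 17636.5 over the list, and 20 of 44 (45.5%) were under 1 kb against 12.7%. The smallest gap was 306 bases, beside a smallest of 305 in the list.

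On the plus strand the interval held 5 peaks on 2.82% of its bases, so that 90% of its 50 peaks were on the minus strand, the strand the interval was drawn on. Each of the 5 overlapped a minus-strand peak. The peaks at 41405559 to 41405889 (331 bases), 41422467 to 41422793 (327 bases) and 41441433 to 41442155 (723 bases) lay wholly opposite minus-strand peaks 43, 38 and 33. The peak at 41479211 to 41480398 (1188 bases) had 97.4% of its bases opposite peak 12. The peak at 41484733 to 41485273 (541 bases), antisense to Platr4, had 62.5% opposite peak 9. The 5 minus-strand peaks concerned had a median width of 1730 bases, and the other 40 a median of 512.

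Overlap with the opposite strand was more frequent among wider peaks in the whole list too. It involved 6.66% of all peaks, 5.67% of those under 1 kb, 8.01% of those from 1 to 2 kb and 14.7% of those of 2 kb or more. In the locus it involved 1 of 33, 2 of 8 and 2 of 4 peaks in the same classes. How well the libraries kept the strand is not given in the sources used here, and its part in these overlaps was not tested.

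**Figure D4:**
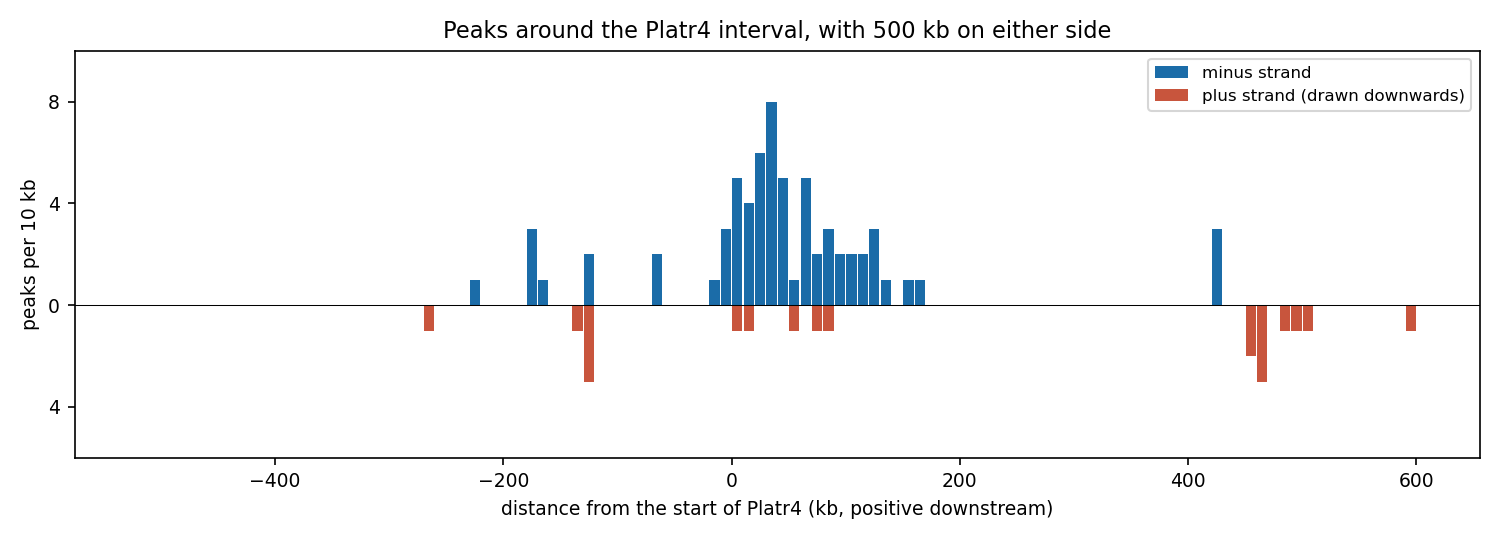
Peaks per 10 kb on the minus strand (upwards) and the plus strand (downwards) over the interval and 500 kb on either side, by distance from the start of Platr4 in kb. Bins outside the interval have at most 3 peaks on either strand, and the interval reaches 8 on the minus strand.

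The surroundings held few peaks. In the 500 kb upstream of the interval, on the side of higher coordinates, the minus strand had 9 peaks (0.018 per kb), the nearest at 41554906 to 41555289, 47597 bases from peak 1. In the 500 kb downstream it had 13 (0.026 per kb), the nearest 10621 bases from peak 45. The interval itself had 0.409 per kb. Outside it 88 of 100 bins of 10 kb had no minus-strand peak. The downstream edge was the less sharp: 8 further minus-strand peaks, 88 to 1428 bases wide, lay opposite the long non-coding gene 1700052H01Rik (41354147 to 41393589, plus strand). When gaps of up to 20 kb were allowed they joined the locus, which then counted 53 peaks.

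Of the 19 annotated genes within 500 kb that lay outside the interval, 6 held a peak of their own strand. The nearest on either side held 0: 1700052H01Rik, 3.571 kb away, and 2400006E01Rik (41521247 to 41528474 in GENCODE, minus strand), 13.939 kb away. Upstream, Jade1, which encodes a PHD finger protein of histone acetyltransferase complexes (41555731 to 41616864, plus strand), held 1 exonic peak. Sclt1, a gene for a centriole protein (41626720 to 41742514, minus strand), held 5, or 0.0432 per kb, and D3Ertd751e held 1. Downstream, Larp1b, which encodes an RNA-binding protein of the La-related family (40949828 to 41040234, plus strand), held 8, or 0.0885 per kb. Gm42436, which lies within Larp1b, and Abhd18 held 1 each. Of these 6 genes the highest density was that of the short Gm42436, 0.274 per kb from its single peak, against 0.545 for Platr4. That single peak is also 1 of the 8 counted for Larp1b and cannot be assigned to either gene.

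**Figure D5:**
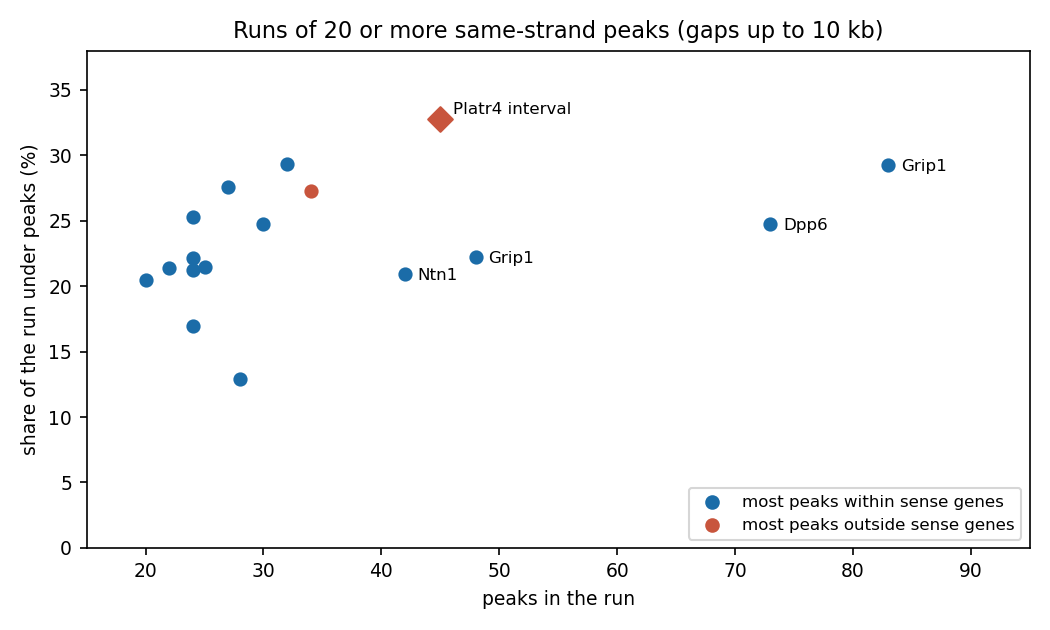
The 17 runs of at least 20 same-strand peaks with gaps of up to 10 kb: number of peaks against the share of the run under peaks in percent, coloured by whether most peaks lie in sense genes. The Platr4 interval (diamond, 45 peaks, 32.8%) has the highest share among them, and 1 other run, with 34 peaks and 27.3%, also lies mostly outside genes.

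Read as a run of same-strand peaks, the locus stood beside runs within single genes. With gaps of up to 10 kb the list fell into 18418 runs, of which 17 had at least 20 peaks. The run around Platr4 was the interval itself, and its 45 peaks ranked 4, after runs in Grip1 (83 and 48) and Dpp6 (73). These genes, like the others named here as comparisons for runs, were picked after their values were seen. With gaps of up to 5 kb the part from 41439254 to 41507308, with 33 peaks and 38.7% of its bases covered, was the run with the most peaks in the list, ahead of 24 in Grip1. With gaps of up to 20 kb the run ranked 6.

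By share of bases under peaks the locus ranked 1 of the 17 runs, which ranged from 12.9% to 32.8%, and by peaks per kb it ranked 3. The run is the chosen interval itself, so a high rank is in part built in. With gaps of up to 20 kb it ranked 2 by covered share among 46 runs of at least 20 peaks. With gaps of up to 5 kb it ranked 1 of 4 such runs. A Grip1 run of 19 peaks, below that minimum, had 40.9% covered at 5 kb. The locus also lay mostly outside genes, as 1 other run of the 17 did: a minus-strand run of 34 peaks on chromosome 9 (40115169 to 40202160), of which 33 lay outside sense genes. The other 15 of the 17 lay mostly within annotated genes of their strand. These counts depend on the minimum of 20 peaks. Shorter runs with all peaks outside sense genes included 19 peaks on chromosome 8 and 14 on chromosome 2.

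Stretches of the same length were compared as well, with the locus near the top. That length is the span of the chosen peaks, so a high rank is in part built in. With each chromosome and strand divided into consecutive windows of 110149 bases, 11640 of 49454 windows held a peak, with a median of 2 and a 99th percentile of 13 among them. The window with most of the locus counted 39 peaks, and 1 window, in Grip1, counted 40. With a stretch placed instead at the best position of each locus, an alternative added after seeing the data, the Platr4 interval and a part of Grip1 shared rank 1 with 45 peaks each. Peaks covered 36143 bases of the locus and 34372 bases of the stretch in Grip1. Of the 44 such stretches with at least 20 peaks, 3 had most of their peaks outside sense genes.

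The peak names carry call numbers that rise along each strand, and gaps in them show numbers that are not in the list. If each number stands for 1 candidate call, the 45 peaks kept 88.2% of the 51 numbers they span, with 6 absent. Closely spaced peaks were what the choice of the interval used, so a high share is in part built in, and it is given as a description. Over the minus strand of the list the share was at most 8.98%. Among the 17 long runs this share ranked 2, with a range of 51.9% to 100% over them. On the plus strand of the interval 5 of 12 numbers were in the list, or 41.7%. Why a number is absent is not given in the sources used here.

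Among its namesakes Platr4 was not alone in holding peaks. Of the 30 Platr genes annotated by GENCODE, 14 held a sense peak (46.7%), against 322 of 5854 genes of the class lincRNA (5.50%). The sets are unlike. Some Platr genes, such as Platr8 and Platr25, are of other classes, and the median length was 8.727 kb for Platr genes against 6.426 kb. The Platr genes were grouped for their abundance in these cells, and the abundance of the RNAs was not measured here. Platr21 and Platr28 held 6 peaks each, in bodies of 117.513 kb and 57.375 kb, Platr4 held 5 and Platr22 held 3. Platr3, Platr10, Platr20 and Platr25 held 2 each, and Platr8, Platr14, Platr19, Platr27, Platr29 and Platr32 held 1 each. The single peaks of Platr29 and Platr32, and 1 of the 6 in Platr21, fell within a second sense gene as well and cannot be assigned to either. By peaks per kb, Platr3 (0.634) and Platr27 (0.575) stood above Platr4 (0.545), on 2 peaks and 1 peak.

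With the gene body and its surroundings counted together, other Platr genes had fewer peaks than Platr4, whose count the choice of the interval used. In a stretch from 14.116 kb upstream to 96.032 kb downstream of each gene's start, the shape of the interval, Platr4 had 45 peaks of its strand, Platr22 had 10, Platr28 had 8 and Platr3 had 7. Platr12 had 6 in the stretch and 0 in the gene. The median of the other 29 was 3, and 3 of them had 0. Among the 5854 lincRNA genes, Platr4 included, the median was 0, 76.8% had none, 7 had at least 20 and Platr4 alone reached 45. These 7 are not separate loci. The stretch of Gm40040 takes in peaks 4 to 45 of this locus, and that of 2400006E01Rik takes in peaks 1 to 33. The interval was fitted to Platr4, so its count has an advantage over the others that was not measured.

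By sense peaks per kb of gene body, Platr4 ranked 2 of the 1053 genes with at least 5 sense peaks, whose median was 0.0527. Safb, the gene of the protein recovered, was above it with 0.605 (13 peaks). Below it came 4933412E12Rik, a long non-coding RNA, with 0.444 (6 peaks), Lyar, which encodes a nucleolar protein, with 0.434 (6 peaks), and Safb2, the paralogue of Safb, with 0.423 (10 peaks). In Safb and Safb2 9 peaks each lay in exons, and in Lyar 5, while in Platr4 1 did. Platr4 stands exactly at the minimum of 5 peaks. With its RefSeq body it held 3 peaks, and without the uncertain peak 8 it would hold 4, so in either case it would drop out of this ranking. All 5 peaks set over exon length in place of body length gave 1.96 per kb. This is not a density of exonic peaks, since 1 of the 5 is exonic by midpoint.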

How the data were processed

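RNA from 9 immunoprecipitations, in 5 groups, was sequenced from ribosome-depleted libraries with ERCC spike-in RNA, per the labels' protocols. The authors deposited 1 list of 30998 peaks (mm10) for all libraries, with 6 columns: positions, a name, a strand and a score. The deposited score is 500 for every peak and carries no information. STAR, Subread and featureCounts are named in the submitters' processing notes. Neither versions, nor the peak caller, nor any pooling of libraries is stated there (not given in the sources used here). Starts were read as counted from 0 and are printed from 1.

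Peaks were placed by midpoint on GENCODE M21, with RefSeq as an alternative, using Python 3.11.15, numpy 2.4.6 and scipy 1.17.1. Shares have 95% Wilson intervals, which cover counting error only. Runs joined same-strand peaks with gaps of up to 10 kb. Transcript stretches were compared with all GENCODE transcripts by blastn 2.17.0 (E-value at most 1e-10). Counting scripts were tested on simulated data. Named genes were Platr4, genes overlapping the interval, genes within 500 kb with a sense peak and the nearest on each side, Platr genes with a sense peak, and up to 3 genes on each side of Platr4 in sense peaks per kb. The members and lists were chosen with earlier results of these data known. The sequence of 1 further stretch is not reported here.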

Additional observations from a re-analysis of the deposited data

How the results depend on the processing

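The 45 minus-strand and 5 plus-strand peaks were the same when any overlap with the interval counted. Restricted to peaks at least as wide as the list's median, they were 21 and 2. The rank of the run by number of peaks, 4, became 1 with gaps of up to 5 kb. Platr4 peaks per kb, 0.545, became 1.96 when all 5 peaks, intronic ones included, were set over exon length. The purine share of the exonic members, 57.5%, became 53.3% in the central 300 bases. The other settings, including starts counted from 1, RefSeq bodies and shifted windows, moved their values by at most 1.5 times or within the Wilson interval of the share. No paired analysis was possible because the list has no values per library. No replicate could be left out for the same reason, and the depth is unknown.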
